A study of Rattus norvegicus and Mus musculus with 14 samples.

Results

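The genes described here are 6 components of the mitogen-activated protein (MAP) kinase pathway and of its nuclear end: Grb2, Map2k2, Mapk8, Rap1gap, Etv5 and Cic. They were selected by name from the platform's probe annotation, taking every probe whose single gene symbol was one of the 6. This gave 7 of the 1152 probes on the array, or 6 of the 342 genes that the annotation names. Grb2 had 2 probes (688 and 767) and each other gene had 1 (Map2k2 98, Mapk8 923, Rap1gap 578, Etv5 866 and Cic 1114, numbered as in the deposited table). Transcripts were measured in 14 samples. The rat samples, 12 in number, were embryonic cortical neurons in a MEK set and a NOS set, each with 2 experiments of 3 arrays. In both sets 1 array per experiment was of neurons given the control treatment that the labels call CSS, and 1 was of neurons given NMDA, an agonist of a class of glutamate receptor. The last array of each experiment was of neurons given NMDA together with an inhibitor: PD98059 in the MEK set and nitroarginine in the NOS set. The other 2 samples were brain cortex of an adult mouse on a c57bl background lacking neuronal nitric oxide synthase (nNOS) and of a wild-type littermate, with 1 array per genotype. Dose, exposure time, rat strain and the construction of the knockout are not given in the sources used here.

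In the MAP kinase pathway an activated receptor tyrosine kinase recruits the adaptor Grb2, which brings the exchange factor SOS to Ras. Ras then starts a relay of kinases from Raf to MEK to ERK, and calcium entering neurons through NMDA receptors can feed the same relay. Map2k2 encodes MEK2, which phosphorylates ERK. PD98059 keeps MEK from being activated, so its direct effect is on kinase activity, which an mRNA array does not measure. Mapk8 encodes JNK1, the end kinase of a parallel, stress-responsive relay. Rap1gap inactivates Rap1, a small GTPase that can signal to B-Raf. At the nuclear end, Cic is a repressor that ERK signalling relieves, and Etv5 is an ETS-family transcription factor whose gene is a known target of that repression. Nitroarginine and the nNOS deletion act on nitric oxide synthesis, a different output of NMDA receptor activity.

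All values are Z-scores within an array, so a level is given as the distance from that array's mean in units of about 1 SD over all probes. A level can be followed across arrays for 1 probe. Levels of different probes are not read as relative amounts of transcript, and a percentile only places a probe's score within its array. Differences are not fold changes. There were 2 arrays (n = 2) per rat group and 1 per mouse genotype. Whether the arrays of a group are separate cultures is not stated in the labels, and p-values therefore cover only the spread between arrays, which may be technical.

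Some arrays stood apart. The column of MEK set control 1 lay 1 row away from its probes: its correlation with the median array was r = 0.103 as deposited and 0.823 once moved down by 1 row, and it is used moved. After the move it correlated with the other MEK set arrays at 0.858 to 0.867, against 0.971 to 0.995 among the 5 others. Between the NOS experiments the correlations of arrays were 0.454 to 0.617. Among neuron markers the annotation named 4 of the 20 genes listed (Mapt, Nefl, Stmn2 and Uchl1), for astrocytes 2 of 9 (Gfap and Glul), for microglia Csf1r, for fibroblasts 3 of 7 (Col1a2, Fbn1 and Igf2) and for oligodendrocytes and endothelium 0, so the cell make-up can be followed only in part. Fewer cells of a type and less RNA per cell cannot be told apart in such samples.

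None of the 7 probes passed the test in any comparison of the rat groups (limma, Benjamini-Hochberg adjustment over 1152 probes, threshold 0.05). The same held for all other probes, so that the background was 0% in each of 8 contrasts. For PD98059 minus NMDA the median SE over all probes was 0.350, while their differences had an SD of 0.0885. With errors of that size the test could call little, so a count of 0 does not show that transcripts were unchanged. This fit did not pair the arrays by experiment, so its SE includes the spread between experiments. With experiment as a block, the SE of the 7 probes for PD98059 minus NMDA was 0.19 to 0.28, against 0.26 to 1.22 without it. Limma with the block also called 0 probes in every contrast. What follows describes the levels of each gene, how far its arrays spread, and how wide the intervals of the differences are.

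**Figure D1:**
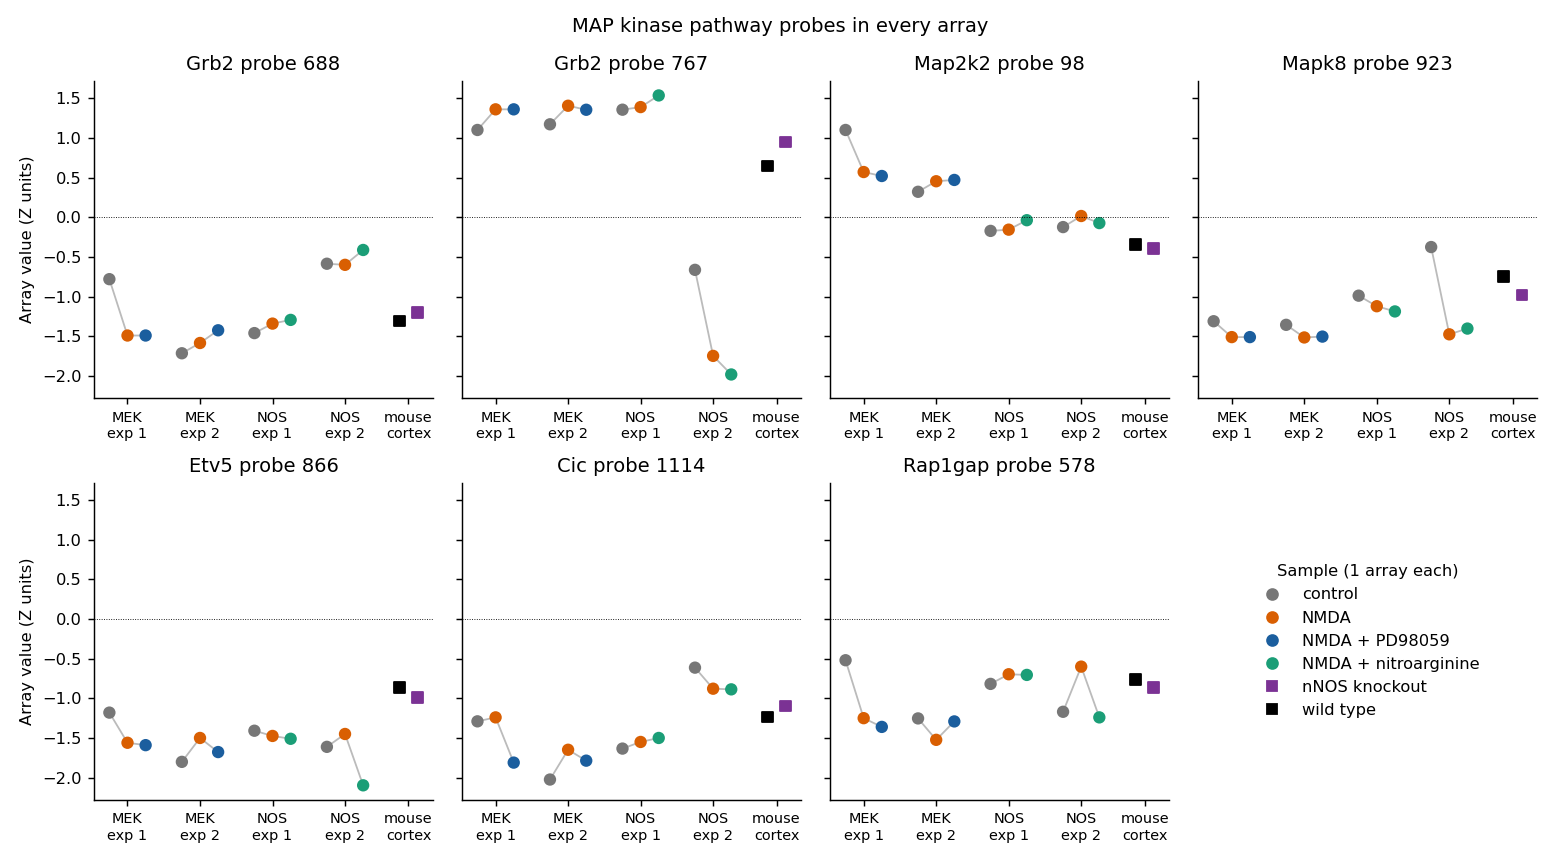
Each panel plots the Z-score of 1 MAP kinase pathway probe (vertical axis, Z units) in the 14 arrays, ordered by experiment and coloured by treatment. The Grb2 probe 767 panel shows 9 rat arrays between 1.10 and 1.54 and the 3 arrays of NOS experiment 2 between -1.98 and -0.66.

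Grb2, the adaptor at the receptor, was read by 2 probes whose patterns across the arrays differed. Probe 688 was at -0.78, -1.49 and -1.49 in the control, NMDA and PD98059 arrays of MEK experiment 1 and at -1.71, -1.58 and -1.42 in those of MEK experiment 2. Its values for control, NMDA and nitroarginine were -1.46, -1.34 and -1.29 in NOS experiment 1 and -0.59, -0.60 and -0.41 in NOS experiment 2. It was therefore a dim probe throughout, between percentiles 6.86 and 33.2 of its array. MEK set control 1 and the arrays of NOS experiment 2 were its highest values.

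Probe 767 of Grb2 was at 1.10, 1.36 and 1.36 in MEK experiment 1 and at 1.17, 1.41 and 1.35 in MEK experiment 2. In NOS experiment 1 it was at 1.36, 1.39 and 1.54, but in NOS experiment 2 it was at -0.66, -1.75 and -1.98. In the first 9 arrays it lay between percentiles 89.9 and 94.5, and in the last 3 between percentiles 1.30 and 17.4. No treatment group separated these arrays, since the control of NOS experiment 2 was low too. The mean of NOS experiment 2 was -1.46 against 1.43 in NOS experiment 1, a difference of -2.89 Z units and the 5th largest such gap in size among 1152 probes, whose gaps had an SD of 0.888. The other Grb2 probe moved the opposite way, by 0.83, which ranked 388th. Of 226 probes with a mean above 1 in NOS experiment 1, 81 (35.8%) had a mean below 0 in NOS experiment 2 and 12 (5.31%), this one included, had a mean below -1. Across the 12 rat arrays, after subtraction of each experiment's mean, the 2 Grb2 probes correlated at r = -0.254, and at -0.440 over the 9 arrays without NOS experiment 2. The 2 probes are annotated with the same gene ID, and which of them reads Grb2 transcript was not tested.

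**Figure D2:**
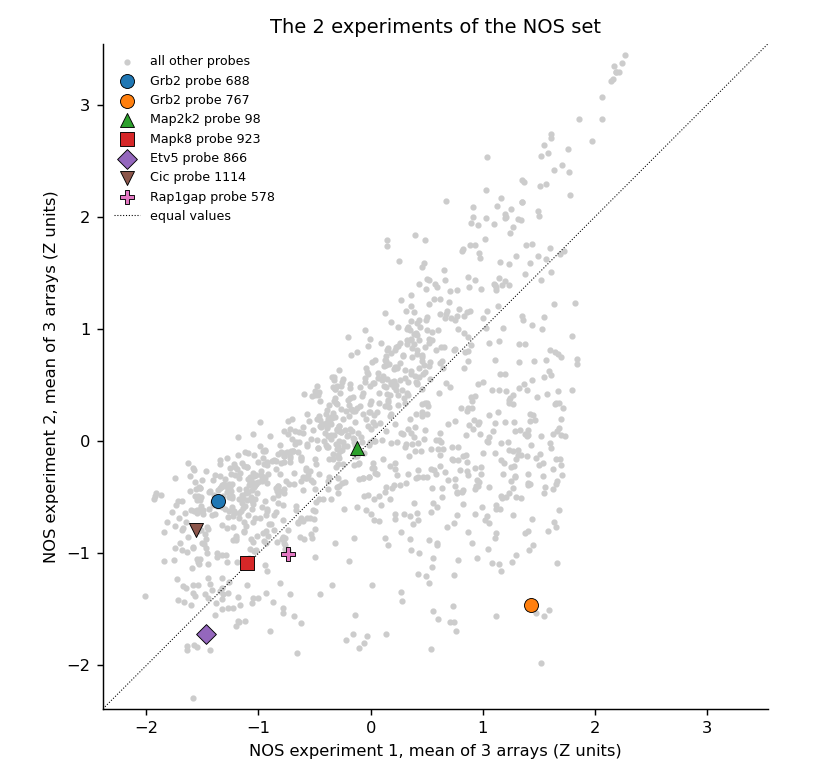
Each point is 1 of 1152 probes, with its mean Z-score over the 3 arrays of NOS experiment 1 on the horizontal axis and over the 3 arrays of NOS experiment 2 on the vertical axis (Z units), the 7 MAP kinase pathway probes being coloured and named. Grb2 probe 767 lies at 1.43 and -1.46, far below the diagonal, while Mapk8 lies at -1.10 and -1.08.

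Map2k2, the gene of MEK2, differed between the sets more than between treatments. It was at 1.10, 0.57 and 0.52 in MEK experiment 1 and at 0.32, 0.45 and 0.47 in MEK experiment 2. In the NOS set it was at -0.17, -0.16 and -0.04 in experiment 1 and at -0.12, 0.02 and -0.07 in experiment 2. All 6 MEK set arrays (0.32 to 1.10) were thus above all 6 NOS set arrays (-0.17 to 0.02). It was the 1 probe of the 7 with no overlap between the sets, against 26.8% of all probes. The control and NMDA arrays, which had no inhibitor, showed the same order, at 0.32 to 1.10 in the MEK set and -0.17 to 0.02 in the NOS set. Set and experiment cannot be told apart in that difference. The highest value, 1.10, was that of the moved column of MEK set control 1, which as deposited held 0.46 at this probe.

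Mapk8, the gene of JNK1, was the 1 probe of the 7 that was lower with NMDA in all 4 experiments. In MEK experiment 1 it was at -1.31 in control, -1.51 with NMDA and -1.51 with PD98059, and in MEK experiment 2 at -1.36, -1.51 and -1.50. In NOS experiment 1 it was at -0.99 in control, -1.12 with NMDA and -1.19 with nitroarginine, and in NOS experiment 2 at -0.38, -1.48 and -1.40. Within each set the control arrays lay above the NMDA arrays without overlap, but over both sets they overlapped, because the level in NOS experiment 1 was higher than in the MEK set. Mapk8 was a dim probe, between percentiles 3.73 and 30.1 of its array.

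Rap1gap, the gene of the Rap1 inactivator, was at -0.52, -1.25 and -1.36 in MEK experiment 1 and at -1.25, -1.52 and -1.29 in MEK experiment 2. It was at -0.82, -0.70 and -0.70 in NOS experiment 1 and at -1.17, -0.60 and -1.24 in NOS experiment 2. The NMDA arrays of the MEK set (-1.52 and -1.25) were below those of the NOS set (-0.70 and -0.60). The highest rat value, -0.52, was again that of MEK set control 1, which as deposited held -1.24. Rap1gap lay between percentiles 7.12 and 31.0 of its array.

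Etv5, the ETS factor, was at -1.18, -1.56 and -1.59 in MEK experiment 1 and at -1.80, -1.50 and -1.68 in MEK experiment 2. It was at -1.41, -1.47 and -1.51 in NOS experiment 1 and at -1.61, -1.45 and -2.10 in NOS experiment 2. In every rat array it was within the lowest 14.4% of probes, and its lowest value was that of nitroarginine in NOS experiment 2. The control arrays of the MEK set, at -1.18 and -1.80, were farther apart than any treatments of either MEK experiment.

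Cic, the repressor, was at -1.29, -1.24 and -1.81 in MEK experiment 1 and at -2.02, -1.65 and -1.79 in MEK experiment 2. It was at -1.63, -1.55 and -1.50 in NOS experiment 1 and at -0.61, -0.88 and -0.89 in NOS experiment 2. Both PD98059 arrays were below both NMDA arrays of their set, and the control arrays lay on either side of the PD98059 arrays. The arrays of NOS experiment 2 were the 3 highest of the 12. Cic was a dim probe, between percentiles 1.56 and 19.4 of its array, and at 2.39 and 2.34 in the PD98059 arrays.

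The PD98059 and NMDA arrays of the MEK set were compared to ask whether transcripts of the pathway differed once MEK was blocked. Within experiments 1 and 2 the difference (PD98059 minus NMDA) was -0.57 and -0.14 for Cic, and -0.03 and -0.18 for Etv5. For Cic, 1.48% of all probes had a larger difference in size in experiment 1 and 15.0% in experiment 2. For Etv5 these shares were 70.1% and 7.64%. Cic and Etv5 were also the probes whose PD98059 and NMDA arrays did not overlap, 2 of 7, against 23.3% of all probes (268 of 1152). Rap1gap went in opposite directions, at -0.11 and 0.23, with 27.8% and 3.73% of all probes larger in size. Map2k2, at -0.05 and 0.02, and Mapk8, at 0.00 and 0.01, stayed close to 0, as did Grb2 probe 767, at 0.00 and -0.05. Grb2 probe 688 was at 0.00 and 0.16, with 10.4% of all probes larger in size in experiment 2. The median size of the difference over all probes was 0.06 in each experiment. The 0.00 values are ties in experiment 1, whose values were given to 2 decimals. Such ties were found for 3 of the 7 probes, against 4.17% of all probes.

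**Figure D3:**
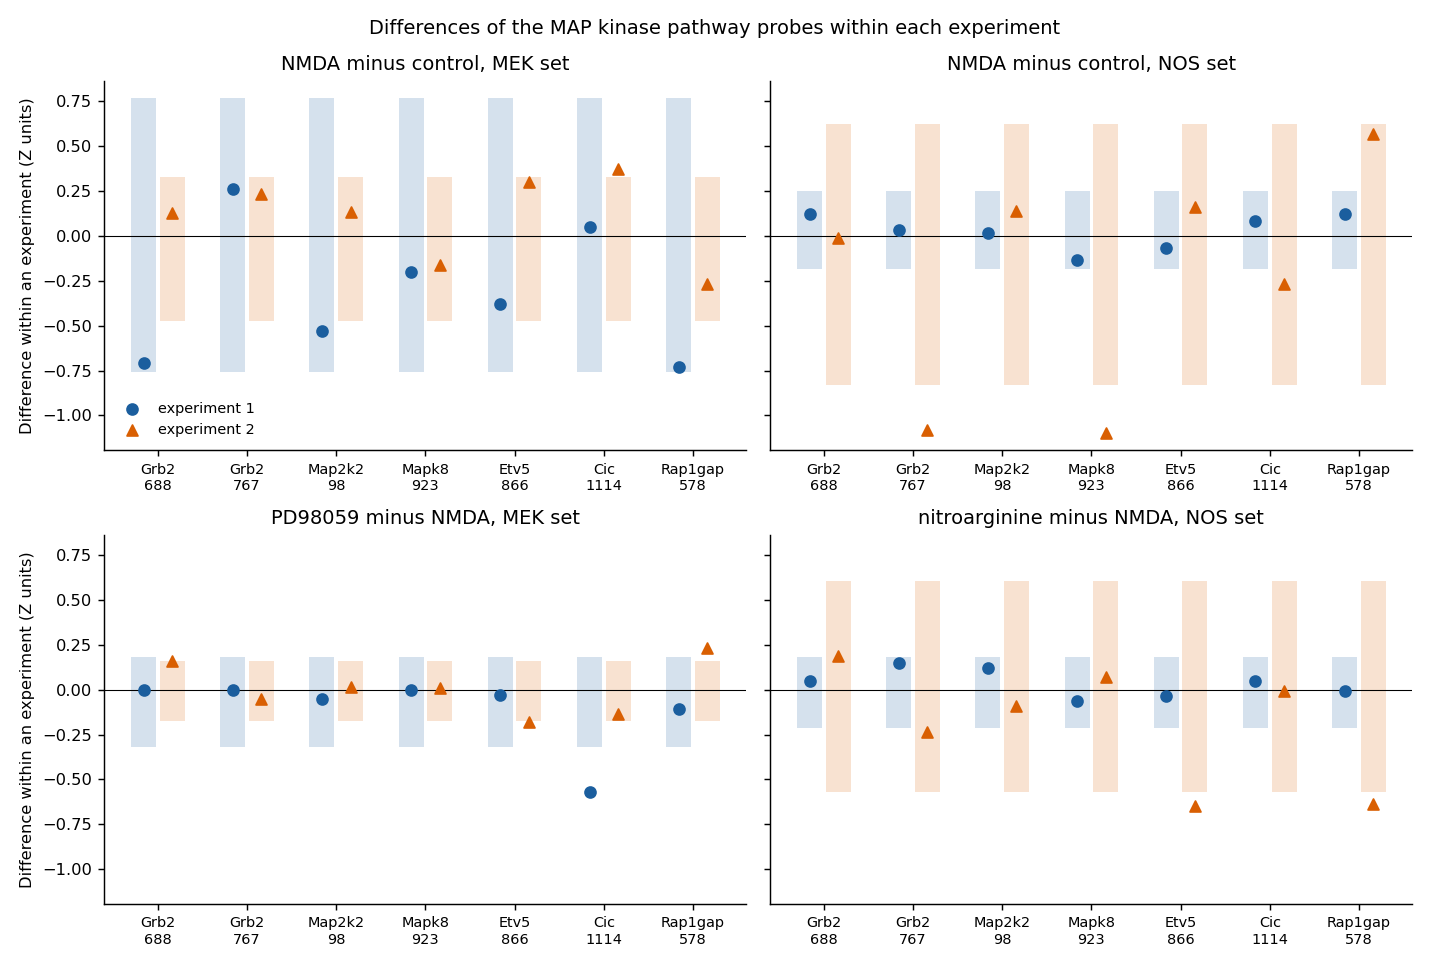
Each panel plots a treatment difference within an experiment (Z units) for the 7 MAP kinase pathway probes, with circles for experiment 1, triangles for experiment 2 and shaded bars from the 5th to the 95th percentile of all probes in that experiment. In the PD98059 panel Cic lies at -0.57 and -0.14 and Mapk8 at 0.00 and 0.01.

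In the fit over the 12 rat arrays, the PD98059 minus NMDA difference of Cic was -0.35 (SE 0.42, 95% interval -1.31 to 0.60), with means of -1.80 against -1.44 (n = 2 arrays each). That of Etv5 was -0.10 (SE 0.28, interval -0.74 to 0.53). Both had an adjusted p of 0.9999 in limma. With PD98059, 0 of the 7 probes were called, against 0% of 1152 probes, and 0 probes had an unadjusted p under 0.05. Using experiment as a block, limma again called 0, with 5 probes (0.434%) at an unadjusted p under 0.05 and none of the 7 among them. In that fit the intervals were narrower, at -0.79 to 0.08 for Cic (SE 0.19) and -0.56 to 0.35 for Etv5 (SE 0.20). For Grb2 probe 767 the SE was 0.28 with the block and 1.22 without it. The median difference of the 7 probes was -0.02, and 3 of 7 were above 0, against a median of 0.02 and 70.9% above 0 over all probes. Intervals for Mapk8 (-0.58 to 0.59), Map2k2 (-0.63 to 0.59) and Rap1gap (-0.63 to 0.75) reach well beyond the differences seen between most probes, whose SD was 0.0885, so the test does not show that these transcripts were alike with and without the inhibitor. With NOS experiment 2 and MEK set control 1 left out, a setting chosen after seeing the data, the SE was 0.13 for Cic, 0.062 for Etv5, 0.054 for Mapk8 and 0.065 for Map2k2, and the adjusted p was 0.9994 for each in limma. Much of the width of the intervals above thus rests on those arrays, none of which is a PD98059 or NMDA array of the MEK set. The number of arrays is small as well. The mean of the 5 neuron marker probes was 0.20 and 0.29 with PD98059 against 0.32 and 0.36 with NMDA, and the marker probes of the other cell types overlapped between these groups. Their part in the values of Cic and Etv5 was not tested.

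PD98059 was also set against the control arrays. The differences within experiments 1 and 2 were -0.52 and 0.24 for Cic, -0.41 and 0.12 for Etv5, -0.58 and 0.15 for Map2k2 and -0.71 and 0.29 for Grb2 probe 688. For all 4, experiment 1 gave a lower and experiment 2 a higher value with the inhibitor. In these 4 and in Rap1gap the value of MEK set control 1 exceeded that of control 2 by 0.62 to 0.93. Mapk8 was at -0.20 and -0.15, Rap1gap at -0.84 and -0.04, and Grb2 probe 767 at 0.26 and 0.18. Those 3 of 7 probes had no overlap between the groups, against 43.1% of all probes. Limma called 0 of 7, against 0% of all probes, 16 (1.39%) having an unadjusted p under 0.05 (148, or 12.8%, with experiment as a block). This comparison shares its controls with that of NMDA, and its PD98059 arrays with the one above.

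NMDA was compared with control to ask what the agonist did to these transcripts. For Mapk8 the difference within experiments was -0.20 and -0.16 in the MEK set and -0.13 and -1.10 in the NOS set. In that order, 63.5%, 46.2%, 27.4% and 1.56% of all probes had a larger difference in size, so only the last was large among probes. Mapk8 was lower in 4 of 4 experiments, as were 53 of 1151 probes (4.6%), while 117 (10.2%) were higher in 4 of 4. The fitted difference over both sets was -0.40 (SE 0.18, 95% interval -0.81 to 0.01), with an adjusted p of 0.9997 and an unadjusted p of 0.0571 in limma. With experiment as a block the interval was -0.74 to -0.06 and the adjusted p was 0.436. In the NOS set alone it was -0.62 (SE 0.26, interval -1.20 to -0.03), with an unadjusted p of 0.0407 and an adjusted p of 0.9998. Leaving out 1 array at a time, the Mapk8 difference in the NOS set ran from -0.92 to -0.31. The value of -0.31 arose without the control of NOS experiment 2. Its -1.10 in NOS experiment 2 was the largest of the 4 values in size. In the MEK set it was -0.18 (SE 0.26, interval -0.76 to 0.40). The difference between the sets was -0.44 (SE 0.37, adjusted p 0.9994 in limma), and without NOS experiment 2 it was 0.0467.

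Rap1gap had the reverse signs in the 2 sets. Its NMDA minus control differences were -0.73 and -0.27 in the MEK experiments and 0.12 and 0.57 in the NOS experiments. The fitted values were -0.50 (SE 0.31) in the MEK set and 0.35 (SE 0.31) in the NOS set. Without MEK set control 1 the MEK set value was -0.13, and without control 2 it was -0.87. Without the control of NOS experiment 2 the NOS set value was 0.17, and without that of experiment 1 it was 0.52. The test of the difference between sets gave 0.85 (SE 0.43, interval -0.13 to 1.82), with an adjusted p of 0.9994 in limma, and ran from 0.48 without MEK set control 1 to 1.21 without control 2. With experiment as a block the interval of this difference was 0.17 to 1.52 (unadjusted p 0.019 and adjusted p 0.555 in limma). In the same fit the MEK set interval was -0.98 to -0.02 (adjusted p 0.342 in limma). A difference between the sets did not pass the threshold in either fit. Limma called 0 of 7 probes for that contrast, against 0% of all probes, with 4 (0.347%) at an unadjusted p under 0.05, and 99 (8.59%) with experiment as a block.

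Grb2 probe 767 was higher with NMDA by 0.26 and 0.23 in the MEK set and by 0.03 in NOS experiment 1, against -1.08 in NOS experiment 2. Cic was at 0.05 and 0.38 in the MEK set and at 0.08 and -0.27 in the NOS set. Map2k2 (-0.53, 0.13, 0.02 and 0.14), Etv5 (-0.38, 0.30, -0.07 and 0.16) and Grb2 probe 688 (-0.71, 0.13, 0.12 and -0.01) had their most negative difference in MEK experiment 1. For these the sign in the MEK set turns with MEK set control 1: without that array the fitted differences were 0.19 for Map2k2, 0.27 for Etv5 and 0.18 for Grb2 probe 688, and with all arrays -0.20, -0.04 and -0.29.

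Non-overlapping groups under NMDA were found in the MEK set for 2 of 7 probes (Grb2 probe 767 higher, Mapk8 lower), against 44.4% of all probes. In the NOS set they were found for 2 of 7 (Mapk8 lower, Rap1gap higher), against 10.3%. Limma called 0 of 7 in the MEK set, the NOS set and both sets together, against 0% of all probes in each. At an unadjusted p under 0.05 there were 16 (1.39%), 2 (0.174%) and 11 (0.955%) of 1152 probes, and with experiment as a block 166 (14.4%), 57 (4.95%) and 128 (11.1%). Over both sets the median of the 7 probes was -0.08 and 2 of 7 were above 0, against a median of 0.000435 and 50.1% of all probes.

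The mean of the 5 neuron marker probes moved with the same groups. It was -0.25 and 0.16 in the MEK set controls against 0.32 and 0.36 with NMDA, and 0.04 and 0.18 in the NOS set controls against 0.30 and 0.52 with NMDA. For the 4 fibroblast marker probes the mean was -0.23 and -0.05 in the MEK set controls against 0.12 and 0.17 with NMDA, while in the NOS set the groups overlapped (-1.08 to -0.32 and -0.78 to -0.38). The 3 astrocyte marker probes overlapped in the MEK set (-0.20 to -0.03 and -0.19 to -0.16) but not in the NOS set (-0.11 to 0.01 and 0.11 to 0.14), and the Csf1r probe overlapped in both. The part of these levels in the values of Mapk8, Rap1gap and the other genes was not tested.

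**Figure D4:**
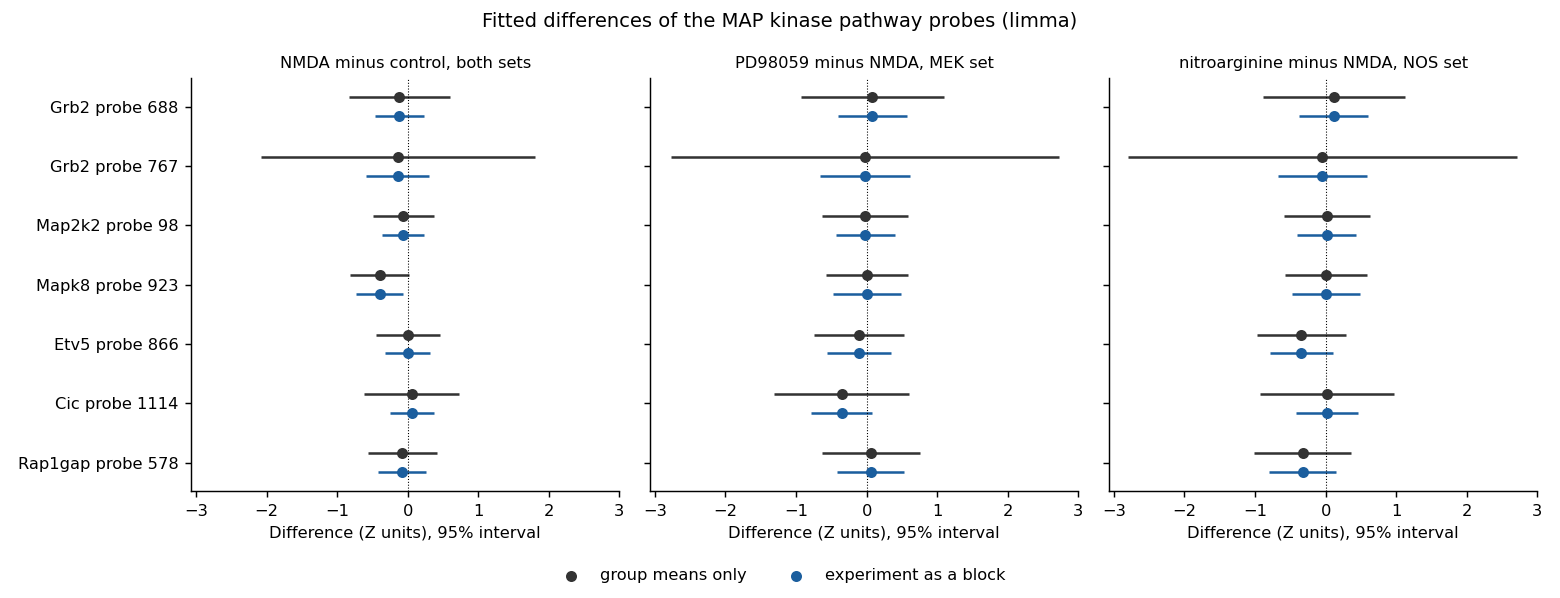
The points are fitted differences from limma (horizontal axis, Z units) with 95% intervals as lines, for the 7 MAP kinase pathway probes in 3 comparisons, in black without and in blue with experiment as a block. Intervals without the block all include 0, and those of Grb2 probe 767 are the widest, from -2.78 to 2.72 for PD98059 minus NMDA.

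Nitroarginine, which blocks nitric oxide synthase, was set against NMDA in the NOS set. The difference within experiments 1 and 2 was -0.04 and -0.65 for Etv5 and -0.01 and -0.64 for Rap1gap, so that nearly all of both came from experiment 2. In that experiment the 5th percentile of all probes was -0.57. These 2 of 7 probes were the ones with no overlap between the groups, against 9.11% of all probes. Their fitted differences were -0.34 (SE 0.28, interval -0.98 to 0.30) and -0.32 (SE 0.31, interval -1.01 to 0.37). With experiment as a block the intervals were narrower, at -0.79 to 0.11 for Etv5 and -0.80 to 0.15 for Rap1gap. Cic was at 0.05 and -0.01, Mapk8 at -0.07 and 0.07, Map2k2 at 0.12 and -0.09, Grb2 probe 688 at 0.05 and 0.19 and Grb2 probe 767 at 0.15 and -0.23. Limma called 0 of 7, against 0% of all probes, with 1 probe (0.0868%) at an unadjusted p under 0.05, and 42 (3.65%) with experiment as a block. The mean of the neuron marker probes was 0.22 and 0.23 with nitroarginine against 0.30 and 0.52 with NMDA, and that of the 3 astrocyte marker probes -0.08 and 0.09 against 0.11 and 0.14. Their part in the values of Etv5 and Rap1gap was not tested.

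The effects of the 2 inhibitors on NMDA-treated neurons were then tested against each other. For Cic the PD98059 effect was 0.37 below that of nitroarginine (difference -0.37, SE 0.60, interval -1.72 to 0.97), and for Rap1gap it was 0.38 above (SE 0.43, interval -0.59 to 1.36). For Etv5 it was 0.24 above (SE 0.40, interval -0.66 to 1.14). None passed (adjusted p 0.998 in limma), 0% of all probes being called and 1 (0.0868%) having an unadjusted p under 0.05, or 10 (0.868%) with experiment as a block. The block made the intervals narrower, at -0.99 to 0.24 for Cic, -0.29 to 1.06 for Rap1gap and -0.40 to 0.88 for Etv5. Hence the lower Cic value with PD98059 was not shown to be particular to that inhibitor.

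In mouse cortex the knockout and wild-type values lay close together for most of these genes. Grb2 probe 767 was at 0.95 in the knockout and 0.65 in the wild type, a difference of 0.30, and 10.9% of all probes had a larger one in size. Mapk8 was at -0.98 against -0.75, a difference of -0.23, with 19.9% of probes larger. For the others the difference was 0.14 (Cic), -0.13 (Etv5), 0.11 (Grb2 probe 688), -0.10 (Rap1gap) and -0.05 (Map2k2). With a running median along the probe order removed, Map2k2 was at 0.034 and Cic at 0, so their direction is not settled. Rap1gap was then at -0.45, so its size is not settled either. The median size over the 7 probes was 0.126, against 0.123 over all probes, whose SD was 0.199. With 1 array per genotype these values have no replicate check and no test. The mean of the marker probes in the knockout and the wild type was -0.09 and -0.20 for neurons, -0.52 and -0.55 for astrocytes, -0.49 and -0.66 for fibroblasts and 0.847 and 1.002 for Csf1r. Their part in these differences was not tested.

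Set beside the rat cultures, Etv5 was higher in mouse cortex, at -0.99 and -0.86 against -2.10 to -1.18 over the 12 rat arrays. Map2k2 was lower, at -0.40 and -0.35 against -0.17 to 1.10. These were 2 of 7 probes with no overlap, against 12.9% of all probes. Over the 9 rat arrays without NOS experiment 2 there were 5 of 7, against 40.2% of all probes: Grb2 probe 767 was lower in mouse cortex (0.65 and 0.95 against 1.10 to 1.54), and Mapk8 (-0.98 and -0.75 against -1.51 to -0.99) and Cic (-1.235 and -1.097 against -2.02 to -1.24) were higher. Species, age and preparation cannot be told apart here, and the probes are annotated to rat genes.

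**Figure D5:**
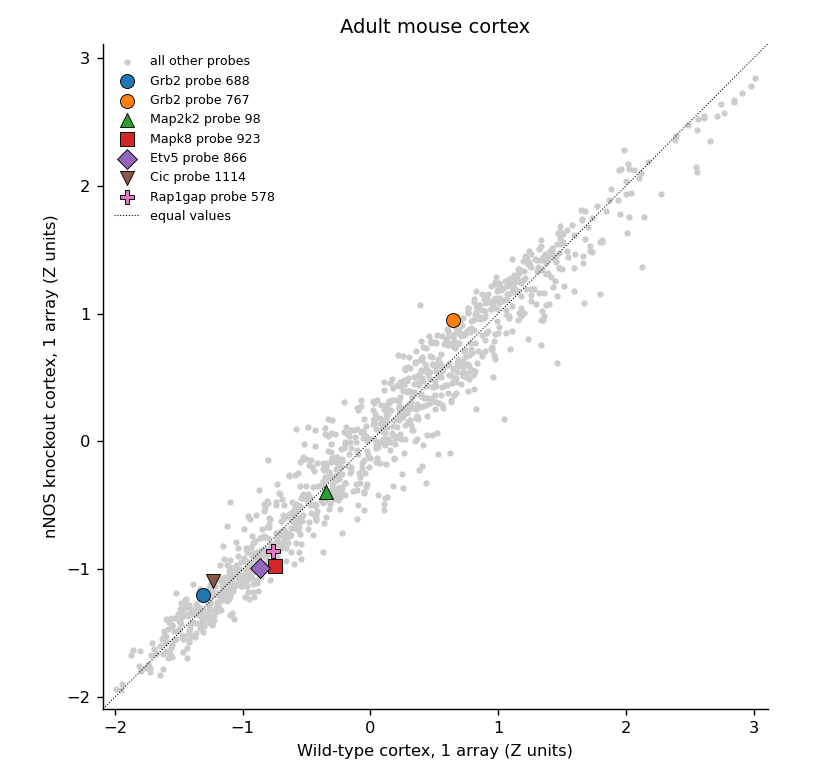
Each point is 1 probe in mouse cortex, with its wild-type Z-score on the horizontal axis and its nNOS knockout Z-score on the vertical axis (Z units, 1 array per genotype), the 7 MAP kinase pathway probes being coloured and the dotted line marking equal values. Grb2 probe 767 lies 0.30 above the line, the farthest of the 7, and Mapk8 lies below it (difference -0.23).

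The rest of the pathway was sampled thinly. Of 159 genes listed for the kinase cascades and their regulators the array named 11, with 13 probes, and of 74 nuclear targets and transcription factors it named 3, which are Cic, Etv5 and Mef2d. Beyond the 6 genes this adds 9 probes of 8 genes: Dusp8, Eps15, Mapk9, Mapkap1, Mef2d, Ppp2r1a, Prkca and Ywhae. None of the listed probes was called in either direction in any of the 8 contrasts, against 0% of all probes. With PD98059, 8 of the 13 cascade probes were above their NMDA value and 5 below, with a median of 0.02. Over all probes 70.9% were above, and the median was also 0.02.

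Mef2d, a transcription factor that MAP kinases phosphorylate, had the largest NMDA difference of these in the MEK set. It was at 0.57 and 0.33 in control, -0.27 and -0.25 with NMDA and -0.16 and -0.26 with PD98059. NMDA minus control was -0.71 (SE 0.25, adjusted p 0.998 and unadjusted p 0.0202 in limma), against -0.12 (SE 0.25) in the NOS set. PD98059 minus NMDA was 0.05 (SE 0.25). In cortex the knockout value of Mef2d was 0.48 below the wild type (difference -0.48). Mapk9, which encodes JNK2, was at 0.04 (SE 0.21) in the MEK set and 0.17 (SE 0.21) in the NOS set for NMDA minus control, where Mapk8 was at -0.18 and -0.62. Dusp8, a phosphatase that acts on JNK, was at -0.25 and 0.18 (SE 0.21 for each).

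The probes most like each gene's probe over the 12 rat arrays, after subtraction of each experiment's mean, were also identified. For Mapk8 they were Slc27a1, Wdr26 and Bcl9l, at r = 0.953, 0.948 and 0.942, but over the 9 arrays without NOS experiment 2 these were 0.200, 0.103 and 0.350. For Grb2 probe 767 they were Psmc3, Wdr26 and Mcrs1, at 0.966, 0.927 and 0.923, and without NOS experiment 2 at 0.997, -0.0500 and 0.922. For Grb2 probe 688 they were Rnf19a, Atp5pb and Pkm (0.966, 0.945 and 0.921), and for Map2k2 Atp5pb, Map7d1 and Pkm (0.943, 0.935 and 0.929). Without MEK experiment 1, which holds the array of the moved column, Pkm was at 0.508 and 0.429 for those probes.

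For Rap1gap the most alike were Atp13a1, Rasip1 and Ppp1cc, at 0.971, 0.956 and 0.951, and the lowest of the 3 was 0.935 without NOS experiment 2 and 0.903 without MEK experiment 1. The Atp13a1 probe, 577, is the row next to that of Rap1gap in the table. Etv5 was most like Glul, Eef1a1 and Sec24b (0.833, 0.817 and 0.817), and Cic like Hspa8, Nfia and Snx27 (0.864, 0.768 and 0.678). Among the 7 probes the closest pair was Grb2 probe 688 and Map2k2, at 0.919 over 12 arrays and 0.533 without MEK experiment 1. Grb2 probe 767 and Mapk8 were at 0.818 over 12 arrays and at -0.949 without NOS experiment 2. Cic and Etv5 were at 0.425. All these correlations are over arrays that share experiments, and are given as descriptions.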

How the data were processed

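Transcript levels were deposited as 1 table of scores for 1152 probes in 14 arrays. The authors' columns have a mean near 0 and an SD near 1, as Z-scores within an array would. Their making (background correction, log scale, filters) was not given in the sources used here. With such scores, a change shared by every probe of an array is lost. Probe names came from the platform annotation: 384 probes had 1 symbol, 6 several and 762 none, and all 7 gene IDs of the probes described were found in the rat RefSeq gene table. No probe or protein sequence was used.

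The column of MEK set control 1 was moved down by 1 row, which left 1 probe, none of the 7, without a value there. The fit in limma 3.58.1 (R 4.3.3) had 6 group means over the 12 rat arrays, with 6 residual degrees of freedom, moderated variances, two-sided tests of 8 contrasts and Benjamini-Hochberg adjustment over all probes. The script was tested on simulated data. Mouse arrays were described only. Other steps used Python 3.11.15, numpy 2.4.6, pandas 2.3.3 and matplotlib 3.10.9.

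The genes, lists and settings were chosen with earlier results of these data known. The text names all 7 probes, the 3 most alike named probes of each (Pearson r over 12 arrays), and listed pathway genes on which a result turns. The labels mark experiments 1 and 2, so experiment pairs the arrays. Their deviations from the group means had pairwise correlations of 0.874 to 0.930 (NOS set) and -0.145 to 0.0726 (MEK set). Alternatives were the column as deposited, experiment as a block, quantile normalization, median centring, trended and robust variances, removal of a running median over 25 probes, a filter on dim probes and the omission of single arrays or of NOS experiment 2.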

Additional observations from a re-analysis of the deposited data

Results flagged for a closer look

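Examined were 14 sets of 4 arrays: the control and the NMDA arrays of both sets, for each of the 7 probes. In each, the gap of the outermost array to its neighbour was divided by the whole range. This ratio was set against Dixon's 95% critical value, which about 1 in 20 sets passes by chance when all 4 arrays share 1 distribution. Here the 4 arrays are from different experiments, between which levels differed, so that rate need not apply. In 3 sets the ratio passed the critical value. For Grb2 probe 767 the control array of NOS experiment 2 was at -0.66, its nearest neighbour being at 1.10 (ratio 0.873), and the NMDA array of the same experiment was at -1.75, its nearest neighbour being at 1.36 (ratio 0.986). For Mapk8 the NMDA array of NOS experiment 1 was at -1.12, the next being at -1.48 (ratio 0.900).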

How the results depend on the processing

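Under 23 other settings 1248 differences of the 7 probes were recomputed, and 0 passed the threshold in limma. The lowest adjusted p was 0.0878, for Etv5 and Cic (NMDA minus control, MEK set) with NOS experiment 2 and MEK set control 1 left out, a setting chosen after seeing the data. That setting called 82 of all probes for NMDA minus control in the MEK set and 76 for PD98059 minus control, none of the 7 among them, where the MEK set control is then 1 array assumed to vary like the others. Leaving out 1 array at a time gave 0 to 1 calls for these contrasts, for NMDA over both sets and for the difference between sets, the 1 arising without MEK set control 2. The paired fit, with experiment as a replicate block, called 0 probes in every contrast and so changed no call.

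In 31 recomputed differences the sign turned by more than the standard error. Without MEK set control 1, first with a replicate block and then with NOS experiment 2 also left out, NMDA minus control in the MEK set was 0.17 and 0.18 for Grb2 probe 688, 0.15 and 0.19 for Map2k2, and 0.26 and 0.27 for Etv5. PD98059 minus control was 0.25 and 0.26, 0.13 and 0.17, and 0.16 and 0.17. With that column as deposited, Map2k2 was at 0.12 and 0.10. With NOS experiment 2 and MEK set control 1 left out, the NMDA difference between sets was -0.18 for Map2k2, 0.0240 for Mapk8 and -0.34 for Etv5, and with NOS experiment 2 alone left out it was 0.0467 for Mapk8. 

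Leaving out 1 array at a time, NMDA minus control in the MEK set ran from -0.76 to 0.18 for Grb2 probe 688, from -0.59 to 0.19 for Map2k2 and from -0.35 to 0.27 for Etv5. PD98059 minus control ran from -0.68 to 0.26, from -0.60 to 0.17 and from -0.45 to 0.17. For Map2k2 NMDA over both sets ran from -0.26 to 0.13 and the difference between sets from -0.11 to 0.67. In the NOS set, NMDA minus control ran from -2.09 to 1.04 for Grb2 probe 767 and from -0.60 to 0.42 for Cic. Nitroarginine minus NMDA ran from -1.80 to 1.71 for Grb2 probe 767, and the difference between inhibitors from -1.74 to 1.78. Another 141 sign changes were smaller than the standard error, and 2 knockout differences lost their sign with a running median removed (Map2k2 at 0.034 and Cic at 0). In the same setting the knockout difference of Rap1gap moved from -0.10 to -0.45. The filter on dim probes kept 2 of the 7 probes (Grb2 probe 767 and Map2k2).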
